A study of Mus musculus with 12 samples.

Results

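The 8 genes described here, Mbp, Pmp22, Mag, Sox10, Prx, Cnp, Egr2 and Cdh19, are known for their roles in Schwann cells and the myelin of peripheral nerve, and were taken by gene symbol from the 23923 genes of the series. The series holds RNA sequencing of the tibialis anterior, a fast muscle of the lower leg, from 6 control and 6 Smyd1 CKO mice, with 1 library per mouse. The question addressed with these genes was whether the nerve content of the muscle differed between controls and CKOs. All 12 mice were 6 weeks old, of the mixed strain C57BL6/J;129S1/SvImJ, and heterozygous for the Myf6 cre allele. Controls had the genotype Myf6 cre/+; Smyd1 flox/+ and CKOs had Myf6 cre/+; Smyd1 flox/-, so that by design controls also lost 1 Smyd1 allele wherever Cre was active and the CKOs had 1 null allele in every cell, Schwann cells included. Cre in this line is made from the Myf6 locus, a gene of skeletal muscle fibers, so that Schwann cells are not the cells in which the floxed allele is meant to recombine. The values are FPKM, the fragment count of a gene divided by transcript length and by library size.

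Schwann cells are the glia of peripheral nerve. Myelinating Schwann cells wrap 1 axon segment each in a sheath of compacted membrane, under the control of the transcription factors SOX10 and EGR2, whereas non-myelinating Schwann cells ensheathe several thin axons without myelin, and terminal Schwann cells cap the neuromuscular junction. A whole muscle contains intramuscular nerve branches, so its RNA holds a small share of Schwann cell transcripts, while the cell bodies of the motor neurons lie in the spinal cord and contribute only axonal RNA. In bulk tissue, fewer cells of a type and less RNA per cell cannot be told apart.

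EGR2 and SOX10 bind DNA through short motifs, and the promoter sequences of the members with such letters upstream of a transcript start are shown so that the regulators can be seen beside their possible sites. Windows of 250 bases before the start were taken from RefSeq (GRCm38.p6) for 5 members, with 14 windows in all. Mbp was left out of the search, and no window was available for Sox10 or Cdh19. Both strands were searched for ACAAAG, the core of a SOX-type motif, and for GCGTGGG, an EGR-type motif, which do not overlap in the windows printed. Of the 32851 windows of all genes, 16.46% held the SOX-type letters and 4.3% the EGR-type letters. Among the member windows, 3 held the SOX-type letters, 1 in Cnp and 2 overlapping windows of Mag around the same position, and 1 window of Prx held the EGR-type letters on the minus strand. None of these letters were in the 4 windows of Pmp22 or the 5 windows of Egr2. A match is a description of the letters only. The Cnp window lies at chr11:100574689-100574938 on the plus strand with its match 167 bases before the start, the Mag window at chr7:30914864-30915113 on the minus strand with its match 126 bases before the start, and the Prx window at chr7:27499074-27499323 on the plus strand with its match 161 bases before the start. They are given 5′ to 3′ with the matched letters in capitals.
Cnp: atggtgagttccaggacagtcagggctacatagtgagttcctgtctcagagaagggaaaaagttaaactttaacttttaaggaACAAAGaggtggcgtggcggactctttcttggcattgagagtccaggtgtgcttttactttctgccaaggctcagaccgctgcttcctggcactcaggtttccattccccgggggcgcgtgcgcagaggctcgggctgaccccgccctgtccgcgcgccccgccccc
Mag: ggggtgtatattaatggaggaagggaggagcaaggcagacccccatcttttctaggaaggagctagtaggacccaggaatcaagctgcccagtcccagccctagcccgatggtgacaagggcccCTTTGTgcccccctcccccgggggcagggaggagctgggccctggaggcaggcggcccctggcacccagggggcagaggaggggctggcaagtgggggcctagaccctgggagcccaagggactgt
Prx: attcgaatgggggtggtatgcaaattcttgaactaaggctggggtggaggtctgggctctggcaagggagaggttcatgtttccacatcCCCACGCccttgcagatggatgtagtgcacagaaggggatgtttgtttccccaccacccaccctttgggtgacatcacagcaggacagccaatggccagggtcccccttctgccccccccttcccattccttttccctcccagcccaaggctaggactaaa

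No difference in the Schwann cell and myelin genes passed the adjusted threshold between CKOs and controls. Of the 8 members, 7 were tested, 6 had a mean log2 value higher in CKOs and 1 lower, and the smallest adjusted P was 0.22 (limma across 12695 genes). The levels of Mbp and Pmp22 were higher in CKOs at an unadjusted P below 0.05, and no member was lower at that threshold. These are 2 of 7 genes, beside a background of 18.1% higher and 1.76% lower without adjustment, and of 2.02% higher and 0.268% lower with it, among all genes in the fit. The median log2 fold change was 0.25 over the tested members and 0.18 over all tested genes, of which 77.9% had a positive value. The libraries were therefore also compared after median-ratio scaling, which removed this shift and left a median of 0.01 over all genes. After scaling, no member passed even the unadjusted threshold in either direction, their median was 0.09, and the smallest adjusted P was 0.653. The background was then 6.63% higher and 7.4% lower without adjustment, and 0.764% higher and 0.701% lower with it. The split of adjusted calls over all genes moved with it, from 257 higher and 34 lower to 97 higher and 89 lower. The groups of 6 overlapped for every member, whereas all 6 CKO values lay above all 6 control values in 2.23% of tested genes and below them in 0.189%.

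**Figure D1:**
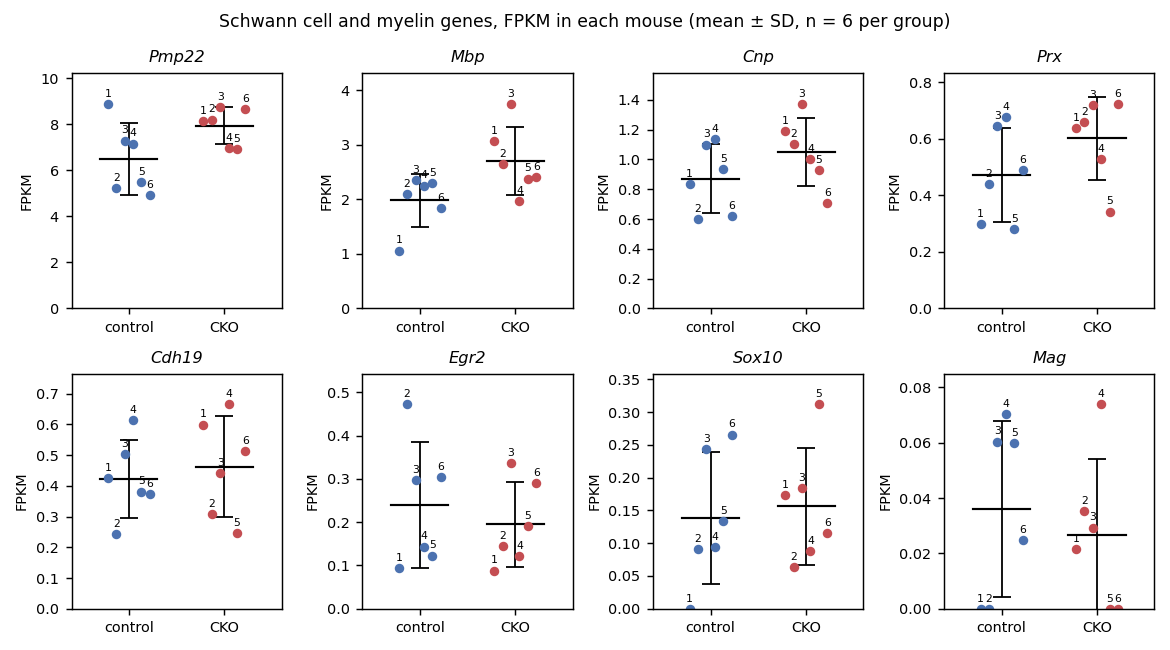
FPKM of the 8 Schwann cell and myelin genes (vertical axes, from 0, a separate scale for each gene) in each control (blue) and CKO (red) mouse, numbered by replicate, with the group mean (line) and SD (bar), n = 6. The groups overlap in every panel, and control 1 is the lowest mouse for Mbp and the highest for Pmp22.

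Control 1 stood apart from the other 11 libraries. It had the highest FPKM of all 12 mice for 8 of 8 fibroblast markers, 8 of 8 macrophage markers and 7 of 8 tendon markers, and its summed fibroblast level was 870 FPKM against 229 to 292 in the other controls and 306 to 513 in CKOs. Its summed macrophage level was 51.3 FPKM against 12.8 to 21.8 in the other controls and 17.4 to 31.2 in CKOs, and its summed tendon level was 62.8 FPKM against 19.3 to 34.0 in the other controls and 17.2 to 36.4 in CKOs. Control 1 was also the highest mouse for 5 of 8 fast fiber markers. Their sum was 38318 FPKM in it, 22358 to 30872 in the other controls and 24167 to 30494 in CKOs. Its adipocyte sum was 310 FPKM against 96.2 to 173 in the other controls and 97.0 to 213 in CKOs. It was the highest mouse for 1 of the 8 adipocyte markers. Results that rest on control 1 are given with and without it. The part of these cell types in the member values was not tested. Without control 1, the background over 12560 genes was 27.2% higher and 1.79% lower without adjustment, and 8.56% higher and 0.549% lower with it. The estimated depth was about 10600000 to 19100000 fragments per library, and no difference between the groups was found (mean depth relative to control 1 of 1.21 ± 0.19 in controls and 1.31 ± 0.30 in CKOs, SD, n = 6, exact two-sided permutation test P = 0.524). Smyd1, the targeted gene, ranged from 32.9 to 47.1 FPKM in controls and from 27.8 to 39.9 FPKM in CKOs, but 1 value per gene does not resolve the deleted part, so this checks neither genotype. No source says that the mice of a group came from separate litters, so the P values measure the spread between these mice.

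Of the members, the genes for proteins of compact myelin, Pmp22 and Mbp, had the highest mean FPKM. Pmp22 encodes a membrane protein of compact peripheral myelin and is also made by fibroblasts, in which it was described as a growth arrest gene. Its FPKM were 8.88, 5.22, 7.29, 7.15, 5.47 and 4.90 in controls 1 to 6, and 8.14, 8.20, 8.72, 6.95, 6.92 and 8.66 in CKOs 1 to 6. Control 1 was the highest of the 12 mice and the other 5 controls lay from 4.90 to 7.29, so that 4 CKOs exceeded all controls but control 1. The level was 6.49 ± 1.55 FPKM in controls and 7.93 ± 0.81 FPKM in CKOs (SD, n = 6), with a log2 fold change of 0.31 ± 0.14 (SE), an unadjusted P of 0.0442 and an adjusted P of 0.236 by limma. Leaving out control 1 raised the log2 fold change of Pmp22 to 0.41 ± 0.12 and lowered its adjusted P to 0.0535, the smallest of any member in that comparison. With sample weights, which count libraries that stand apart for less, Pmp22 rose at the adjusted threshold (log2 fold change 0.40, adjusted P = 0.0473, limma). It was the 1 call among 7 tested members in that fit, in which 11% of all genes rose and 0.906% fell. After median-ratio scaling of all 12 libraries it was 0.13, with a 95% interval from -0.10 to 0.36.

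Mbp encodes the cytoplasmic protein that holds the inner faces of the myelin membrane together. Its FPKM were 1.06, 2.09, 2.35, 2.25, 2.30 and 1.83 in controls 1 to 6, and 3.07, 2.64, 3.75, 1.97, 2.38 and 2.40 in CKOs 1 to 6. Of the 6 CKOs, 5 lay above the highest control, although CKOs 5 and 6 did so by a narrow margin, and control 1 was the lowest of the 12 mice. The mean was 1.98 ± 0.49 FPKM in controls and 2.70 ± 0.63 FPKM in CKOs (SD, n = 6). The log2 fold change of 0.44 ± 0.19 (SE) corresponded to a 1.36-fold higher level, with an unadjusted P of 0.0372 and an adjusted P of 0.22 by limma. Without control 1 it was 0.28 ± 0.15 with an unadjusted P of 0.0811, and after median-ratio scaling it was 0.26 with an interval from -0.19 to 0.72. With both changes made together it was 0.06 with an interval from -0.24 to 0.36.

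The members outside compact myelin were lower in level. Cnp encodes a phosphodiesterase of the non-compacted channels of myelin. Its FPKM ranged from 0.60 to 1.14 in controls, with a median of 0.89, and from 0.71 to 1.37 in CKOs, with a median of 1.05. The groups overlapped over most of their range, with 2 CKOs above the highest control, and the log2 fold change was 0.25 ± 0.19 (SE; adjusted P = 0.463, limma).

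Prx encodes periaxin, a scaffold under the outer Schwann cell membrane. Its FPKM ranged from 0.28 to 0.68 in controls, with a median of 0.47, and from 0.34 to 0.72 in CKOs, with a median of 0.65. Both groups held low and high mice, control 5 being the lowest of the 12 and CKO 6 the highest. The log2 fold change was 0.32 ± 0.23 (SE; adjusted P = 0.436, limma), with an interval from -0.16 to 0.80.

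Mag encodes an adhesion protein of the innermost myelin layer, facing the axon. It was at 0 in controls 1 and 2 and in CKOs 5 and 6, and its highest value was 0.0703 FPKM in controls and 0.0739 FPKM in CKOs. It did not pass the filter on low values and was not tested. The steps between the FPKM gave the whole fragments behind it, which were 7 in the 6 controls and 6 in the 6 CKOs, and a listed 0 in control 1 allowed a level of up to 0.114 FPKM (3 fragments, counting error only). A difference in Mag was not detectable at this depth.

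Sox10 encodes the transcription factor that marks the Schwann lineage at all stages. Its FPKM ranged from 0 to 0.27 in controls, with a median of 0.11, and from 0.06 to 0.31 in CKOs, with a median of 0.14. The 0 in control 1 allowed a level of up to 0.102 FPKM (3 fragments), so that this mouse could not be placed below controls 2 and 4, which had 3 fragments each. In all, 32 fragments were counted in controls and 35 in CKOs, and per unit of depth the CKO level was 1.01 times that of controls. The log2 fold change was 0.16 ± 0.33 (SE; adjusted P = 0.812, limma) and its sign turned without control 1, where it was -0.07 with an interval from -0.69 to 0.56.

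Egr2 encodes the zinc finger factor that switches on the myelin genes, and it is also induced quickly by stimulation in other cells. Of the 7 tested members it was the only one with a lower mean log2 value in CKOs, at -0.16 ± 0.31 (SE; adjusted P = 0.798, limma). Its FPKM ranged from 0.09 to 0.47 in controls, with a median of 0.22, and from 0.09 to 0.34 in CKOs, with a median of 0.17, so that the CKOs lay within the spread of controls apart from CKO 1. The highest value was in control 2, where Egr1, Fos and Jun, genes of the rapid response to stimulation, were also at their highest of the 12 mice, with 10.1, 32.4 and 21.8 FPKM. Egr1 and Fos were chosen after their values were seen, and their part in the Egr2 values was not tested. Without control 2 the log2 fold change of Egr2 was 0.02. It rested on 57 fragments in controls and 47 in CKOs.

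Cdh19 encodes a cadherin of Schwann cell precursors and adult Schwann cells. Its FPKM ranged from 0.24 to 0.61 in controls, with a median of 0.40, and from 0.25 to 0.67 in CKOs, with a median of 0.48. The ranges nearly coincided, on 101 fragments in controls and 127 in CKOs, and the log2 fold change was 0.09 ± 0.23 (SE; adjusted P = 0.863, limma). Its sign was negative after median-ratio scaling, at -0.06.

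**Figure D2:**
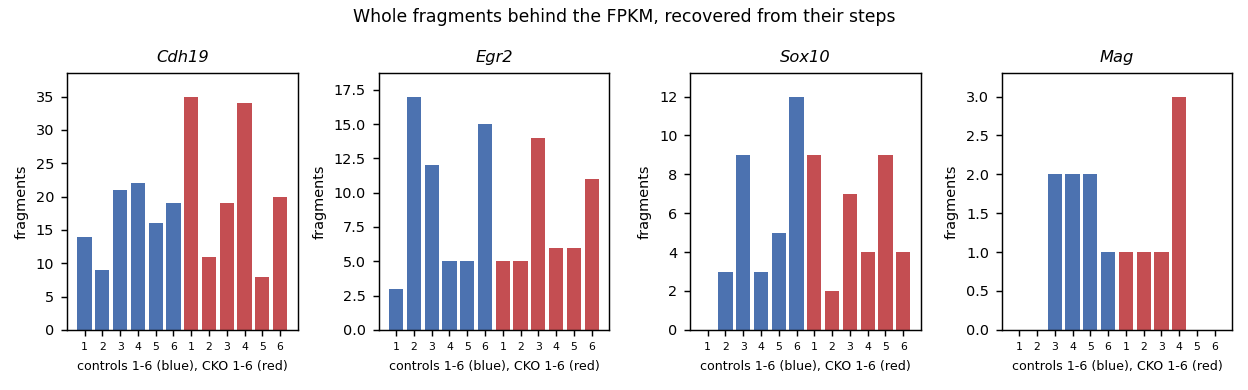
Whole fragments (vertical axes, from 0, a separate scale for each gene) behind the FPKM of 4 low members in each of the 6 controls (blue) and 6 CKOs (red). Mag rests on at most 3 fragments in a mouse and Sox10 on at most 12, and neither has a fragment in control 1.

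The intervals show what size of difference the tested members allowed. For Pmp22 the fold of CKO over control lay between 1.01 and 1.53, for Mbp between 1.02 and 1.81, for Prx between 0.893 and 1.74, and for Cnp between 0.899 and 1.58, as 95% intervals on the log2(FPKM + 0.1) scale, which understates the change of low genes. For Sox10, Egr2 and Cdh19 the intervals reached from 0.572 at the lowest to 1.81 at the highest. A P that missed the threshold does not show that the levels were equal.

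**Figure D3:**
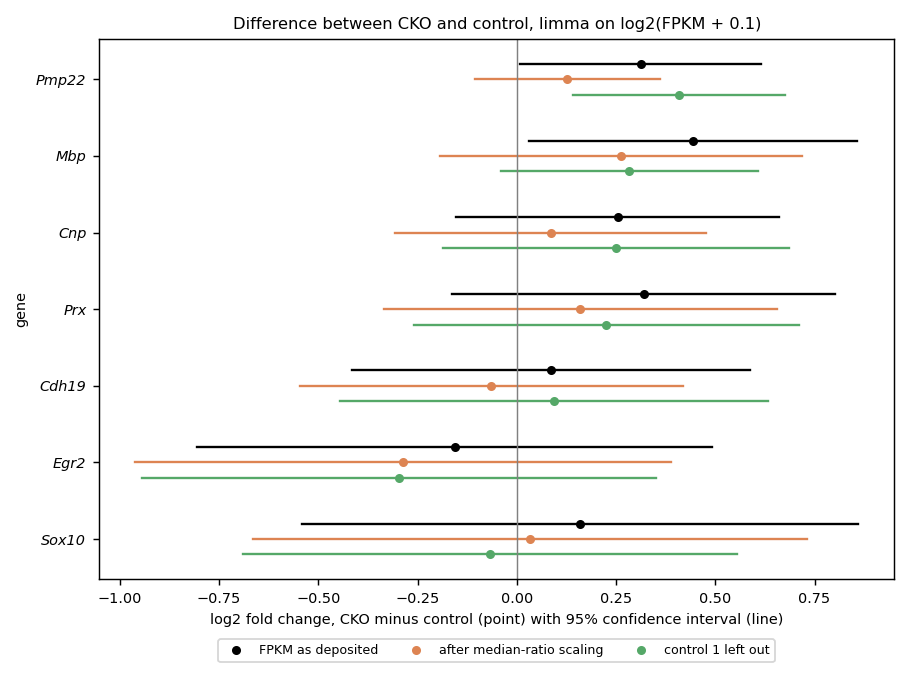
Log2 fold change of CKO minus control (horizontal axis, log2(FPKM + 0.1) scale) for 7 members, with 95% confidence intervals, for the FPKM as deposited (black), after median-ratio scaling (orange) and with control 1 left out (green). Every interval after scaling crosses 0, and leaving out control 1 moved Mbp down and Pmp22 up.

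Over the 12 mice the members were ordered Pmp22, Mbp, Cnp, Prx, Cdh19, Egr2, Sox10 and Mag, with means of 7.21, 2.34, 0.961, 0.537, 0.443, 0.217, 0.147 and 0.0313 FPKM, which are levels per transcript length. Pmp22 exceeded Mbp, and Mbp exceeded Cnp, in 12 of 12 mice. The neighbours Prx and Cdh19, and likewise Egr2 and Sox10, kept their order in 9 of 12 mice, and their spreads overlapped. Pmp22 was more abundant than 83.9% of all tested genes and Sox10 than 3.83%.

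Mbp and Pmp22, the most abundant members, were set against each other within each mouse. In control 1 the ratio of Mbp to Pmp22 was 0.119, against 0.314 to 0.420 in the other controls and 0.278 to 0.429 in CKOs. The mean ratio was 0.325 ± 0.109 in controls and 0.339 ± 0.058 in CKOs (SD, n = 6), and 0.366 ± 0.047 in the 5 controls without control 1. The groups overlapped with or without that mouse, and their difference was smaller than the spread within controls. Control 1 combined the lowest Mbp with the highest Pmp22 and the highest fibroblast markers of the series.

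**Figure D4:**
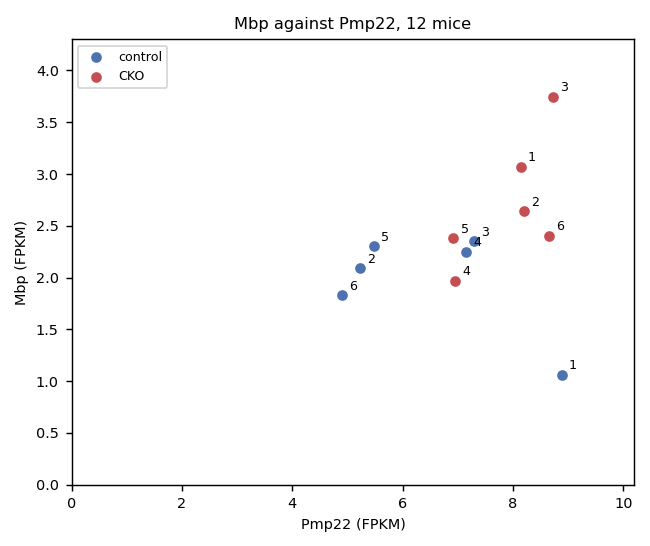
Mbp against Pmp22, in FPKM on linear axes from 0, for the 6 controls (blue) and 6 CKOs (red), numbered by replicate. Control 1 lies alone, at the highest Pmp22 and the lowest Mbp of the 12 mice.

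The mean of all 8 members, untested Mag included, was compared with other genes over the 12 mice, each centred on its group mean. Of the 10 genes most like it, 9 are named here, Prdm2, Taf10, Dyrk2, Rbm33, Sbf1, Rmdn2, Arhgap17, Nup98 and Atf2. Their Pearson r ran from 0.86 for Prdm2 to 0.81 for Atf2, among the 7969 genes with a mean of at least 1 FPKM. None of these 9 was in a nerve list. These are descriptions over mice that share library and tissue, with no test.

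Further genes of Schwann cells, axons and nerve sheaths were taken from 6 lists of 80 symbols, of which 79 were in the files and 53 were tested. None passed the adjusted threshold by limma, while at the unadjusted one CKOs were higher for 10 and lower for 1, and 42 had a positive log2 fold change. The share higher was 18.9%, beside 18.1% in the whole fit. With median-ratio scaling these counts were 8 and 1, so that the share higher was 15.1% beside 6.63% in the whole fit, and 31 had a positive value. Whether these shares differ from those of all genes was not tested. Their median log2 fold change was 0.25 as deposited and 0.08 after scaling, beside 0.18 and 0.01 for all genes. Without control 1 these counts were 15 and 1, a share higher of 28.3% beside 27.2% in that fit. At the adjusted threshold 4 rose, Scn7a, Ncam1, Kcna1 and Uchl1, which was 7.55% beside 8.56% of all genes, and 1 fell, Jun, which was 1.89% beside 0.549%. The shares of higher genes without control 1 were thus near the background.

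Among the 11 tested genes of the myelin sheath, 3 were higher at the unadjusted threshold, beside 18.1% in the whole fit. After median-ratio scaling 2 were higher, beside 6.63%. These 2, Gldn and Drp2, are described here. Gldn encodes gliomedin, which gathers sodium channels at the node of Ranvier. It ranged from 0.04 to 0.16 FPKM in controls and from 0.08 to 0.69 FPKM in CKOs, with medians of 0.10 and 0.33, and 5 CKOs lay above every control while CKO 5 lay within their range. Its log2 fold change was 1.13 ± 0.32 (SE; adjusted P = 0.0766, limma) and 1.01 after scaling (adjusted P = 0.139). Drp2, the partner of periaxin at the outer membrane, had a log2 fold change of 0.65 ± 0.20 (SE; adjusted P = 0.097, limma). Prx, the other component of that complex, was at 0.32, as given above.

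Of the 4 tested enzymes of myelin lipids, 1 was higher at the unadjusted threshold, beside 18.1% in the whole fit. This was Ugt8a, which makes galactosylceramide, with 0.12 to 0.29 FPKM in controls and 0.18 to 0.45 FPKM in CKOs. Its log2 fold change was 0.70 ± 0.23 (SE; adjusted P = 0.117, limma). After median-ratio scaling Ugt8a stayed higher at the unadjusted threshold, beside 6.63%, but not with control 1 also left out (unadjusted P = 0.0501, limma). Cers2, a ceramide synthase of very long chains, had a log2 fold change of 0.27, and Aspa, which frees acetate for lipid synthesis, one of -0.24. The other tested enzyme, St3gal5, was at -0.02. Among the 12 tested regulators and receptors, Erbb3, the receptor through which axonal neuregulin acts on Schwann cells, ranged from 0.22 to 0.62 FPKM in controls and from 0.56 to 1.17 FPKM in CKOs. A single control, control 4, exceeded the lowest CKO, and the log2 fold change was 0.80 ± 0.22 (SE; adjusted P = 0.0672, limma). Erbb2, its co-receptor, had a log2 fold change of 0.47. Jun, a factor of the injury response of Schwann cells and of the rapid response in many cells, ranged from 7.52 to 21.8 FPKM in controls and from 6.34 to 11.3 FPKM in CKOs. Its log2 fold change was -0.61 ± 0.22 (SE; adjusted P = 0.142, limma), and it fell at the adjusted threshold without control 1, at -0.77 (adjusted P = 0.0196).

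The 13 tested markers of non-myelinating and all Schwann cells held 4 that were higher at the unadjusted threshold, Scn7a, Ncam1, Kcna1 and Col28a1. In the whole fit 18.1% of genes were higher. After median-ratio scaling 3 of the 13 were higher, without Col28a1, beside 6.63% of all genes. As deposited, 11 had a positive log2 fold change and 2 a negative one. These were S100b at -0.28 and Dhh at -0.26, neither past the unadjusted threshold. Ncam1 encodes an adhesion protein of non-myelinating and terminal Schwann cells that muscle fibers also make when they lose their nerve or regenerate. It ranged from 0.66 to 1.08 FPKM in controls and from 0.88 to 3.36 FPKM in CKOs, with 5 CKOs above every control, and its log2 fold change was 0.94 ± 0.25 (SE; adjusted P = 0.0623, limma). Kcna1, although counted in this list, encodes a potassium channel that axons carry beside the node, and which cells its RNA came from was not tested. Kcna1 ranged from 0.15 to 0.45 FPKM in controls and from 0.46 to 0.77 FPKM in CKOs. Its groups did not overlap, but Kcna1 was named for its small P. All 6 CKO values lay above all 6 control values in 2.23% of tested genes. The log2 fold change of Kcna1 was 0.75 ± 0.21 (SE; adjusted P = 0.0669, limma). Scn7a, a sodium-sensing channel protein of non-myelinating Schwann cells, had a log2 fold change of 0.73 ± 0.21 (SE; adjusted P = 0.0801, limma), which without control 1 was 0.87 with an adjusted P of 0.0107.

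**Figure D5:**
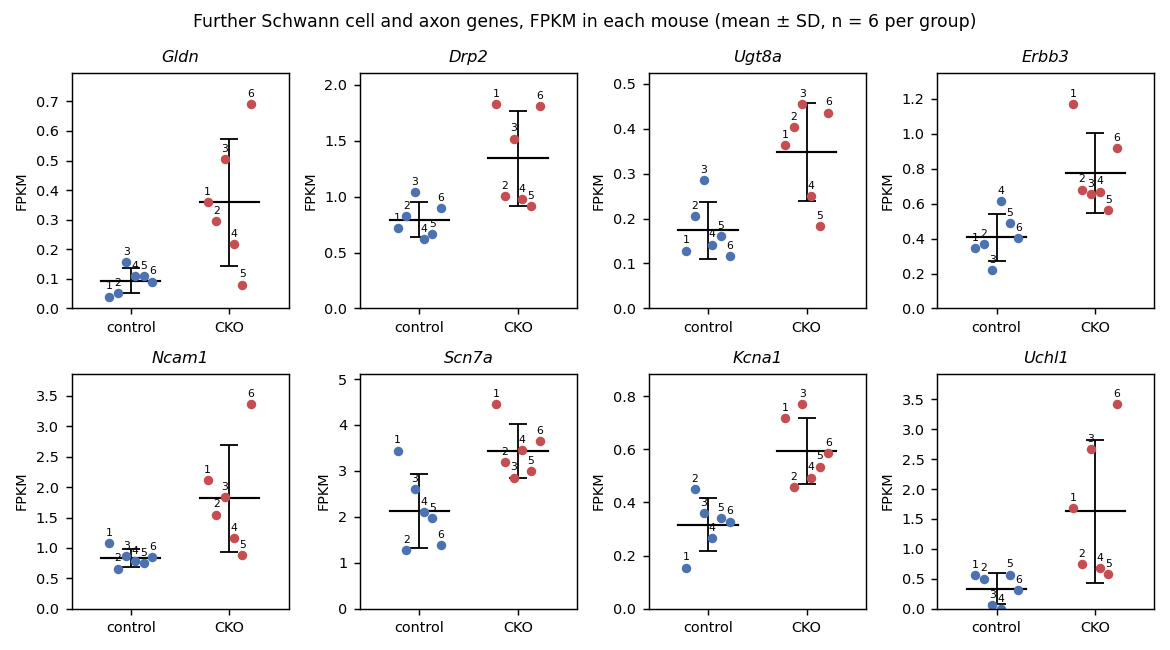
FPKM of 8 further Schwann cell and axon genes (vertical axes, from 0, a separate scale for each gene) in each control (blue) and CKO (red) mouse, numbered by replicate, with the group mean (line) and SD (bar), n = 6. The panels show genes higher in CKOs at an unadjusted P below 0.05, and among these 8 the groups are apart for Kcna1 and Uchl1 alone.

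Axon genes were scarce, with 4 of 13 tested. Uchl1, a ubiquitin hydrolase of neurons, ranged from 0 to 0.57 FPKM in controls and from 0.57 to 3.42 FPKM in CKOs, so that the 6 CKOs lay above the 6 controls, though CKO 5 did so by 0.574 against 0.571 FPKM. Uchl1, like Kcna1, was named for its small P, and 2.23% of tested genes were apart in this way. Its log2 fold change was 2.01 ± 0.53 (SE; adjusted P = 0.0623, limma), and it depends on the added 0.1 because control 4 was at 0. The other 3 tested axon genes did not pass the unadjusted threshold, with log2 fold changes of -0.60 for Prph, a filament protein of peripheral neurons, -0.32 for Sncg, a synuclein, and 0.12 for Stmn2, a regulator of microtubules in growing axons. Stmn2 was named after its value was seen, and its sign was negative after median-ratio scaling, at -0.01. Chat, the enzyme that makes acetylcholine, was listed at 0 in all 12 mice. Of the 9 tested genes of the perineurium and endoneurium, none passed the unadjusted threshold, with log2 fold changes of 0.48 for Ccl9, 0.34 for Slc2a1 and 0.34 for Etv1.

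The markers of other glia were at or near 0. Oligodendrocytes, the myelinating glia of the brain and spinal cord, also make Mbp, Mag and Cnp. Of 9 markers that oligodendrocytes do not share with Schwann cells, none passed the filter, Mobp, Olig1 and Olig2 were listed at 0 in every mouse, and the highest value of any was 0.22 FPKM. Gfap, which belonged to the list of non-myelinating and all Schwann cell markers above, was listed at 0 in all 12 mice. Of the lists for other cell types, the adipocyte markers held 3 of 6 tested genes that were higher at the unadjusted threshold (Adipoq, Cfd and Lipe), the fibroblast markers 2 of 8 (Pdgfra and Lum), the macrophage and endothelial markers 0 of 8 each, the smooth muscle and pericyte markers 0 of 6, and the keratinocyte markers 0 of 1, while 2 of 8 tendon markers (Mkx and Kera) were lower and the 8 fast fiber markers held 1 higher (Myh4) and 1 lower (Acta1). None of these passed the adjusted threshold. Without adjustment, the whole fit gave 18.1% of genes up in CKOs and 1.76% down. After median-ratio scaling, 1 adipocyte marker (Cfd), 1 fibroblast marker (Pdgfra) and 1 fast fiber marker (Myh4) stayed higher, beside 6.63% of all genes. Lower after scaling were 3 of 8 tendon markers (Mkx, Fmod and Kera) and 5 of 8 fast fiber markers, beside 7.4%. Whether these counts differ from the background was not tested. Without control 1, 6 of 8 fibroblast markers, 1 of 8 macrophage markers (Cd163), 1 of 6 adipocyte markers (Cfd) and 1 of 8 fast fiber markers (Myh4) rose at the adjusted threshold, beside 8.56% of all genes in that fit, so that the single calls are near what the background gives for lists of this size. The part of these cell types in the Schwann cell values was not tested. In control 1 the fibroblast sum and Pmp22 were both the highest of the 12 mice, whereas Mbp was the lowest. A single mouse does not show whether such values move together.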

How the data were processed

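RNA from the tibialis anterior of 12 mice was depleted of ribosomal RNA and sequenced. The authors aligned reads with bowtie2 and TopHat2 2.0.10, allowed at most 2 mismatches, dropped multi-mapping reads, and made the deposited FPKM with Cufflinks 2.1.1 on mm9 (tool versions and build from the submitters' processing notes). Reads shared with a close paralog are thus lost, and strand use in counting is not given in the sources used here. The authors tested counts with DESeq; those counts were not used here. Each file held 23950 rows, and 27 with a date in place of a symbol were left out.

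FPKM were compared as log2(FPKM + 0.1) by limma 3.58.1 (R 4.3.3, trended prior variance) wherever 6 or more of the 12 samples reached 0.1 FPKM, and P was adjusted by Benjamini-Hochberg over all tested genes at 0.05. Confidence intervals are 95%. Whole fragments and depth were read from the steps between FPKM below 0.15, fragments were called whole within 0.001, and library totals were estimated from the steps of single-exon genes. The code was tested on simulated data. The members, lists and tests were chosen with earlier results of these data known. Named genes were all members, Smyd1, from each nerve list the 3 genes with the smallest P and every gene past the adjusted threshold, at most 3 markers of each other cell type, and the 10 genes most like the members. A few genes chosen this way are left unreported but remain in all fits and counts. Other processing choices are listed with their effects below.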

Additional observations from a re-analysis of the deposited data

Results flagged for a closer look

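Among the values of 28 named genes in 56 groups of 6 mice, 4 groups held a mouse far from the others by Dixon's test, and chance flags about 1 in 20 groups. In 3 of them the mouse was control 1, which was the highest control for Cers2, at 4.45 FPKM against 3.31 in the next, for Prph, at 0.889 FPKM against 0.290, and for Ccl9, at 1.69 FPKM against 0.652. In the fourth, CKO 3 was the lowest CKO for Etv1, at 0.169 FPKM against 0.333 in the next. No group of a Schwann cell and myelin member was among them.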

How the results depend on the processing

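Of 149 member values recomputed under other settings, 139 kept the sign of their log2 fold change, 10 reversed, and 1 passed the adjusted threshold. With sample weights 1 member, Pmp22, rose (log2 fold change 0.40, adjusted P = 0.0473), and of the 53 further nerve genes 9 rose (17.0%) and 1 fell (1.89%), in a fit in which 11% of all genes rose and 0.906% fell. The 2 members higher at the unadjusted threshold became 0 after median-ratio scaling, alone, with the replicate block, or with control 1 left out (a pairing of settings chosen after seeing the data), 0 after quantile normalization, 1 without the intensity trend, and 0 to 2 when each mouse was left out in turn. For the further nerve genes, 4 rose and 1 fell without control 1, 3 rose without CKO 5, Gldn, Ncam1 and Uchl1 (range 0 to 4 higher and 0 to 1 lower over the mice left out), and 1 rose and 1 fell with median-ratio scaling and control 1 left out. Those higher at the unadjusted threshold were 2 with a filter at 1 FPKM, where fewer genes were tested, and those lower were 2 after quantile normalization. Cdh19 reversed to -0.0643 after median-ratio scaling, also with the block, to -0.1174 after quantile normalization and to -0.0931 with scaling and control 1 left out, and ranged from -0.0295 to 0.2142 over the mice left out. Sox10 reversed to -0.0939 after quantile normalization and to -0.2028 with scaling and control 1 left out, and ranged from -0.0667 to 0.3075. Egr2 ranged from -0.2966 to 0.0163. Except where stated, the cause was not tested.

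Mice of both groups with the same replicate number were slightly more alike on average than others (mean correlation of their deviations 0.04 against -0.01, with 5 of 12 mice correlating best with their own number), but only 2 of 6 pairs correlated over 0.1, so the numbers were not taken as pairs. With the replicate block, Ncam1 rose (adjusted P = 0.0473), 2 members stayed higher at the unadjusted threshold, and Mbp kept its log2 fold change of 0.44.

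Over all genes, the 257 higher and 34 lower at the adjusted threshold became 1400 and 115 with sample weights, and 88 to 1075 and 18 to 69 over the mice left out, with the most without control 1. They became 97 and 89 after median-ratio scaling (91 and 82 with the replicate block), 101 and 68 after quantile normalization, and the higher ones became 170 without a filter and the lower ones 186 with scaling and control 1 left out. At the unadjusted threshold, 2300 higher and 224 lower became 841 and 939 after scaling (855 and 943 with the block, 1092 and 1140 with control 1 left out) and 810 and 837 after quantile normalization, and the higher ones 3704 with sample weights. Values are limited by depth for Mag, Sox10 and Egr2, which rest on 13, 67 and 104 fragments in all.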
